A study of Mus musculus with 48 samples.

Results

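The effect of Ago2 loss on the RNAs recovered with Tnrc6a was measured by RNA immunoprecipitation and sequencing in mouse embryonic stem cells. The effect of a gene is the log2 ratio of immunoprecipitate (IP) to input in HA-Tnrc6a Ago2 knockout cells less the same ratio in HA-Tnrc6a cells, formed within experiment 3 and within experiment 4 and then averaged. It rests on 24 of the 48 libraries of the study, in 8 groups of 3 (2 genotypes, input and IP, 2 experiments), and 19995 of the 20171 genes of the deposited table could be tested. All cells were 129S6/SvEvTac embryonic stem cells that carried the GFP_5xT71BS reporter, were grown on gelatin with LIF and came from a background with a stable FLAG-Cas9::T2A::Blasticidin transgene. HA-Tnrc6a cells bear the HA-AVI-Tnrc6a tag and are labelled with no knockout, and the knockout cells bear the same tag and the genotype Ago2-/-. The other 24 libraries came from tagged Upf1-/- cells and from untagged cells, and they were used here only for comparison and for the background of the beads. Lysates came from triplicate dishes, and equal protein was given to the HA beads. How many clones stand behind a genotype is not given in the sources used here, so a clone and its knockout cannot be told apart, and the p-values measure the spread between dishes.

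Argonaute proteins carry microRNAs to messenger RNAs, and the microRNA seed, near its 5′ end, pairs with sites that lie mostly in 3′ untranslated regions. Tnrc6a, Tnrc6b and Tnrc6c, the mammalian GW182 proteins, bind Argonaute and bring in the CCR4-NOT and PAN2-PAN3 deadenylases, after which the cap is removed and the RNA is degraded. Mouse has the Argonautes Ago1 to Ago4, of which Ago2 can also cut a fully matched target. Embryonic stem cells are known for the miR-290 and miR-302 clusters, which share a seed, whereas let-7 rises as they differentiate.

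In the contrast, the inputs held 15829009 to 19595405 counts in experiment 3 and 30397981 to 37101637 in experiment 4, and the IPs 11471544 to 17971907 and 25724085 to 73845953. HA-Tnrc6a input 3 of experiment 3 stood apart from inputs 1 and 2 of its group, with a chi-square per degree of freedom of 34.3 and 28.9 over genes, against 2.66 between those 2. The pluripotency genes Pou5f1 and Nanog marked all inputs. Pou5f1 was at 1520 ± 14.6 and 1592 ± 3.97 CPM (counts scaled to library size) in HA-Tnrc6a inputs of experiments 3 and 4. In Ago2 knockout inputs it was at 1519 ± 138 and 1564 ± 12 CPM (SD, n = 3 each). Nanog was higher in the knockout inputs, at 758 ± 14.8 and 852 ± 4.52 CPM against 642 ± 14.8 and 716 ± 2.84 CPM. Summed over 18 pluripotency genes, the knockout inputs were also higher without overlap. They held 10153 to 10623 CPM against 9608 to 9725 CPM in experiment 3, and 10243 to 10444 CPM against 9711 to 9816 CPM in experiment 4. The summed level of the 18 germ layer and trophoblast markers found in the table, of 21 listed, was lower in the knockout inputs, at 106 to 108 CPM against 143 to 148 CPM in experiment 3 and 86.3 to 90.0 CPM against 116 to 123 CPM in experiment 4. The summed level of the 6 fibroblast markers found, of 10 listed, was also lower in the knockout inputs without overlap, at 35.8 to 39.3 CPM against 47.7 to 52.4 CPM in experiment 3 and 28.7 to 32.3 CPM against 41.6 to 44.0 CPM in experiment 4, with Acta2 and Col1a2 under 1 CPM in each. In bulk lysates fewer cells of a type and less RNA per cell cannot be told apart.

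The targeted gene was examined first. Ago2 (ENSMUSG00000036698, chromosome 15, 73101625 to 73184947 in GRCm38.p6) stood at 205, 210 and 205 CPM in the HA-Tnrc6a inputs of experiment 3 and at 97.1, 92.8 and 93.9 CPM in the knockout inputs. In experiment 4 the inputs were at 323, 322 and 303 CPM in HA-Tnrc6a cells and at 136, 130 and 124 CPM in knockout cells. The groups did not overlap, and some Ago2 RNA remained in every knockout input. In the IPs Ago2 was at 950, 865 and 820 CPM in HA-Tnrc6a cells of experiment 3 against 175, 172 and 197 CPM in the knockout, and at 1151, 1203 and 1074 CPM against 161, 154 and 166 CPM in experiment 4. The loss of Ago2 RNA from the IP thus exceeded its loss from the input, with a log2 recovery effect of -1.35 ± 0.07 (SE over groups of 3; edgeR quasi-likelihood adjusted p = 1.19e-16).

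Tnrc6a, whose own RNA is the most strongly recovered of the GW182 family, was examined as the tagged gene (ENSMUSG00000052707, chromosome 7, 123031101 to 123195296). Its RNA was at 34244, 26128 and 19271 CPM in the HA-Tnrc6a IPs of experiment 3 and at 58807, 41114 and 51684 CPM in the knockout IPs. In experiment 4 the IPs were at 12657, 8841 and 10555 CPM and at 12689, 11211 and 15861 CPM. All knockout IPs were above all HA-Tnrc6a IPs in experiment 3, and the groups overlapped in experiment 4. Relative to the inputs, in which Tnrc6a was 0.51 ± 0.12 higher in the knockout on the log2 scale, the recovery effect was 0.11 ± 0.16 (SE; edgeR quasi-likelihood adjusted p = 0.00359 for the input and 0.716 for the recovery), and the IP-over-input ratios of the genotypes overlapped in both experiments.

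Of the 19995 genes tested, 1817 (9.09%) had higher and 2450 (12.3%) had lower recovery in Ago2 knockout cells, 4267 (21.3%) in all, at an adjusted p under 0.05. Most of these changes were small, since 224 genes (1.12%) changed by at least 2-fold, 86 upward and 138 downward. The median effect over all genes was -0.04 on the log2 scale. The experiments share no library, but 1 joint fit estimated the spread of both. In that fit 2164 (10.8%) and 2399 (12%) genes passed in experiments 3 and 4. Fitted alone, experiment 3 gave 1623 genes and experiment 4 gave 3463. The calls compared next are those of the joint fit, so they are not fully independent. Higher recovery was called for 948 genes (4.74%) in experiment 3 and 989 (4.95%) in experiment 4, and in both for 498 genes, 52.5% of the first list and 50.4% of the second. Lower recovery was called for 1216 genes (6.08%) and 1410 (7.05%), and in both for 681, 56.0% and 48.3% of the respective lists, and 6 genes were called in opposite directions (3 each way). The scatter of effects in the 2 experiments shows these genes along the diagonal and a few genes far from it.

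**Figure D1:**
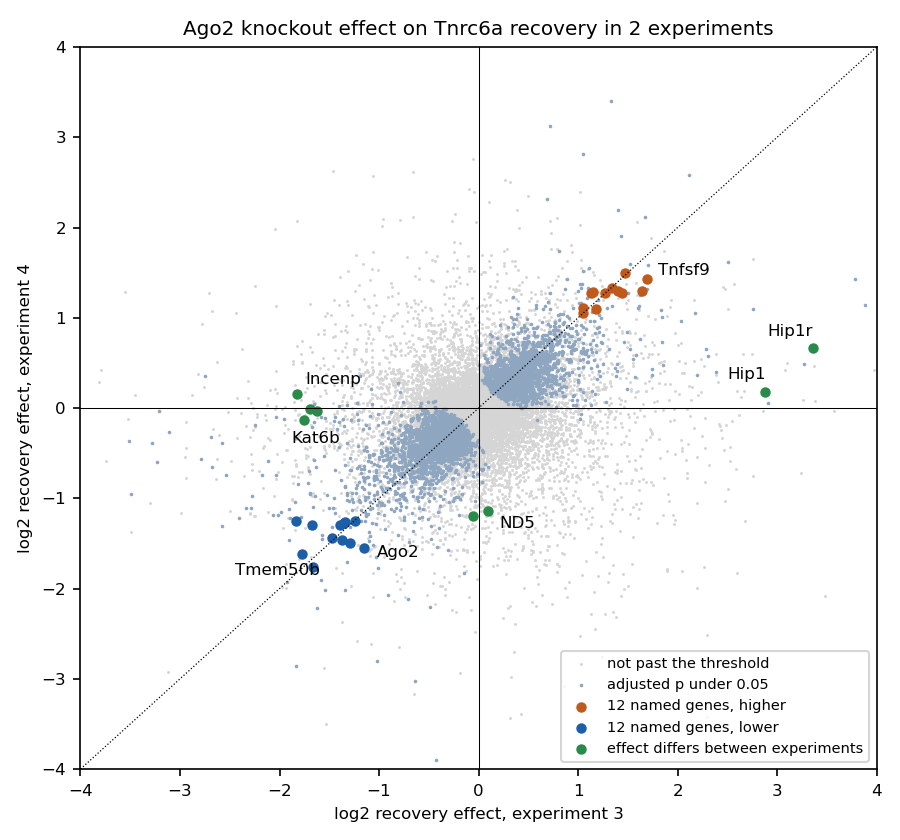
Log2 recovery effect of each gene in experiment 3 (x axis) and experiment 4 (y axis), 1 point per gene, with the 12 genes named in each direction and the 8 genes named for a difference between experiments in colour. The 24 genes named for effects in both experiments lie near the dotted line of equal effects, the 8 named for a difference, such as Hip1, Hip1r and Incenp, lie away from it, and 27 genes fall outside the axes.

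The 12 genes with the most reproducibly higher recovery, ranked by the smaller of their effects in the 2 experiments, were St3gal4, Tnfsf9, Zfp941, Med18, Marchf9, Herpud1, Nt5c3, Zcchc10, Zfand5, Ss18l1, Gdf15 and Lin52. Their log2 effects ranged from 1.05 to 1.56 (largest edgeR quasi-likelihood adjusted p = 2.18e-07). St3gal4 (ENSMUSG00000032038, chromosome 9, 35046576 to 35116864), which encodes a sialyltransferase, was at 24.6, 24.3 and 19.8 CPM in the HA-Tnrc6a IPs of experiment 3 and at 50.2, 45.6 and 44.8 CPM in knockout IPs. In experiment 4 it was at 19.3, 16.6 and 15.1 CPM against 35.7, 32.4 and 34.9 CPM. Every knockout IP exceeded every HA-Tnrc6a IP, while the inputs fell by 0.46 ± 0.08 (SE, log2; edgeR quasi-likelihood adjusted p = 3.48e-05), and the recovery effect was 1.48 ± 0.10 (adjusted p = 2.5e-13).

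Tnfsf9 (ENSMUSG00000035678, chromosome 17, 57105287 to 57107758), the ligand of the costimulatory receptor 4-1BB, had 38.8, 38.2 and 30.7 CPM in the HA-Tnrc6a IPs against 93.0, 75.1 and 91.7 CPM in knockout IPs of experiment 3. In experiment 4 it had 22.1, 17.8 and 17.9 CPM against 31.9, 33.0 and 37.3 CPM. These IP groups did not overlap, and the untagged IPs held 1.38 to 4.67 CPM. Its recovery effect was 1.56 ± 0.15 (SE; edgeR quasi-likelihood adjusted p = 5.58e-10). Herpud1 (ENSMUSG00000031770, chromosome 8, 94386429 to 94395371), which acts in the degradation of misfolded proteins of the endoplasmic reticulum, had IP levels of 149 ± 17.6 and 158 ± 22.9 CPM in HA-Tnrc6a cells and 311 ± 40.0 and 349 ± 10.2 CPM in the knockout (SD, n = 3; experiments 3 and 4). Its effect was 1.36 ± 0.09 (SE; adjusted p = 2.5e-13).

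Among the others, Marchf9, a membrane-bound ubiquitin ligase, was at 1.47 ± 0.10, Med18, a subunit of Mediator, at 1.35 ± 0.09 and Zfp941, a zinc finger protein, at 1.33 ± 0.08 (SE, log2). Ss18l1, a subunit of the BAF chromatin remodelling complex, was at 1.14 ± 0.11, Lin52, a subunit of the DREAM complex, at 1.08 ± 0.12, and Gdf15, a stress-induced member of the TGF-beta superfamily, at 1.05 ± 0.12. Gdf15 rose from 14.2 ± 1.12 to 39.2 ± 1.66 CPM in the IPs of experiment 4 and from 15.9 ± 2.50 to 28.2 ± 3.53 CPM in those of experiment 3 (SD, n = 3). Zcchc10 was the member nearest to the beads' own background, with untagged IPs of 113 ± 7.86 and 110 ± 7.01 CPM beside HA-Tnrc6a IPs of 118 ± 7.56 and 97.4 ± 15.7 CPM and knockout IPs of 243 ± 36.3 and 190 ± 10.9 CPM.

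The 12 genes with the most reproducibly lower recovery were 1700081N11Rik, Tmem50b, Eri1, Zfp385a, Cfl2, Nanos1, Bcl2l11, Wiz, Klhl28, Syap1, Entpd5 and Ago2 itself. Their log2 effects ranged from -1.71 to -1.24 (largest edgeR quasi-likelihood adjusted p = 2.47e-08). Tmem50b (ENSMUSG00000022964, chromosome 16, 91574508 to 91597680), a transmembrane protein gene, was at 292, 264 and 216 CPM in the HA-Tnrc6a IPs and at 106, 93.2 and 98.2 CPM in knockout IPs of experiment 3. In experiment 4 it was at 178, 141 and 139 CPM against 54.1, 58.3 and 57.1 CPM. The knockout IPs kept less than every HA-Tnrc6a IP but more than the untagged IPs, which held 12.2 to 23.3 CPM. The inputs moved the other way, from 26.7 ± 0.428 to 35.2 ± 1.91 CPM in experiment 3 and from 20.3 ± 1.25 to 23.1 ± 0.803 CPM in experiment 4 (SD, n = 3), and the recovery effect was -1.70 ± 0.09 (SE; adjusted p = 4.57e-16).

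Eri1 (ENSMUSG00000031527, chromosome 8, 35465265 to 35495533) encodes a 3′ exoribonuclease that trims histone messenger RNA and small RNAs. Its IPs were at 574, 573 and 519 CPM in HA-Tnrc6a cells against 291, 237 and 267 CPM in the knockout in experiment 3. In experiment 4 they were at 531, 429 and 411 CPM against 202, 193 and 208 CPM. The groups did not overlap, and the effect was -1.46 ± 0.08 (SE; edgeR quasi-likelihood adjusted p = 4.57e-16).

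Bcl2l11 (ENSMUSG00000027381, chromosome 2, 128126038 to 128162547) encodes the proapoptotic protein Bim. It was at 710, 647 and 527 CPM against 387, 305 and 356 CPM in the IPs of experiment 3, and at 416, 328 and 320 CPM against 140, 134 and 149 CPM in those of experiment 4. All knockout IPs were below all HA-Tnrc6a IPs of their experiment, and the effect was -1.39 ± 0.10 (SE; edgeR quasi-likelihood adjusted p = 7.55e-12). In the annotation Bcl2l11 overlaps Acoxl, Klhl28 overlaps Togaram1 and Entpd5 overlaps Bbof1, and St3gal4, Tnfsf9, Nt5c3, Zfand5, Eri1, Syap1 and Ago2 each overlap another gene model, and whether reads were counted by strand is not given in the sources used here, so their counts may hold reads of those neighbours.

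Cfl2, the muscle form of the actin-severing protein cofilin, was at -1.49 ± 0.10, and its inputs rose from 38.9 ± 0.715 to 64.4 ± 1.30 CPM in experiment 3 and from 44.6 ± 0.814 to 60.4 ± 0.253 CPM in experiment 4 (SD, n = 3). Syap1 was at -1.55 ± 0.09, Nanos1, an RNA-binding repressor of translation, at -1.35 ± 0.13, and Wiz, a zinc finger partner of the G9a and GLP histone methyltransferases, at -1.31 ± 0.08 (SE, log2). Zfp385a, with the strongest binding of the 12 in the tagged Upf1-/- cells (5.21 on the log2 scale over untagged cells), was at -1.42 ± 0.11 and kept 687 ± 106 and 378 ± 11.3 CPM in the knockout IPs against 37.2 ± 2.25 and 26.9 ± 0.298 CPM in untagged IPs.

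These 24 genes were chosen for effects of one sign in both experiments, so it is a description that the IP-over-input ratios of the genotypes did not overlap in either experiment for any of them. Over all genes tested, 7.57% lay above and 8.51% below without overlap in both. Measured against the cells labelled Upf1 knockout instead of HA-Tnrc6a cells, the same Ago2 knockout libraries gave values of 0.89 to 1.52 for the higher genes, and the lower genes lay below by 1.13 to 1.82 on the log2 scale. The inputs of the lower genes were higher in the knockout for 10 of 12 and lower for Ago2, and those of the higher genes were lower for 6 of 12 and higher for none, beside 10.8% higher and 10.1% lower over all genes. Inputs enter the recovery effect with the opposite sign, so this is not independent of it.

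**Figure D2:**
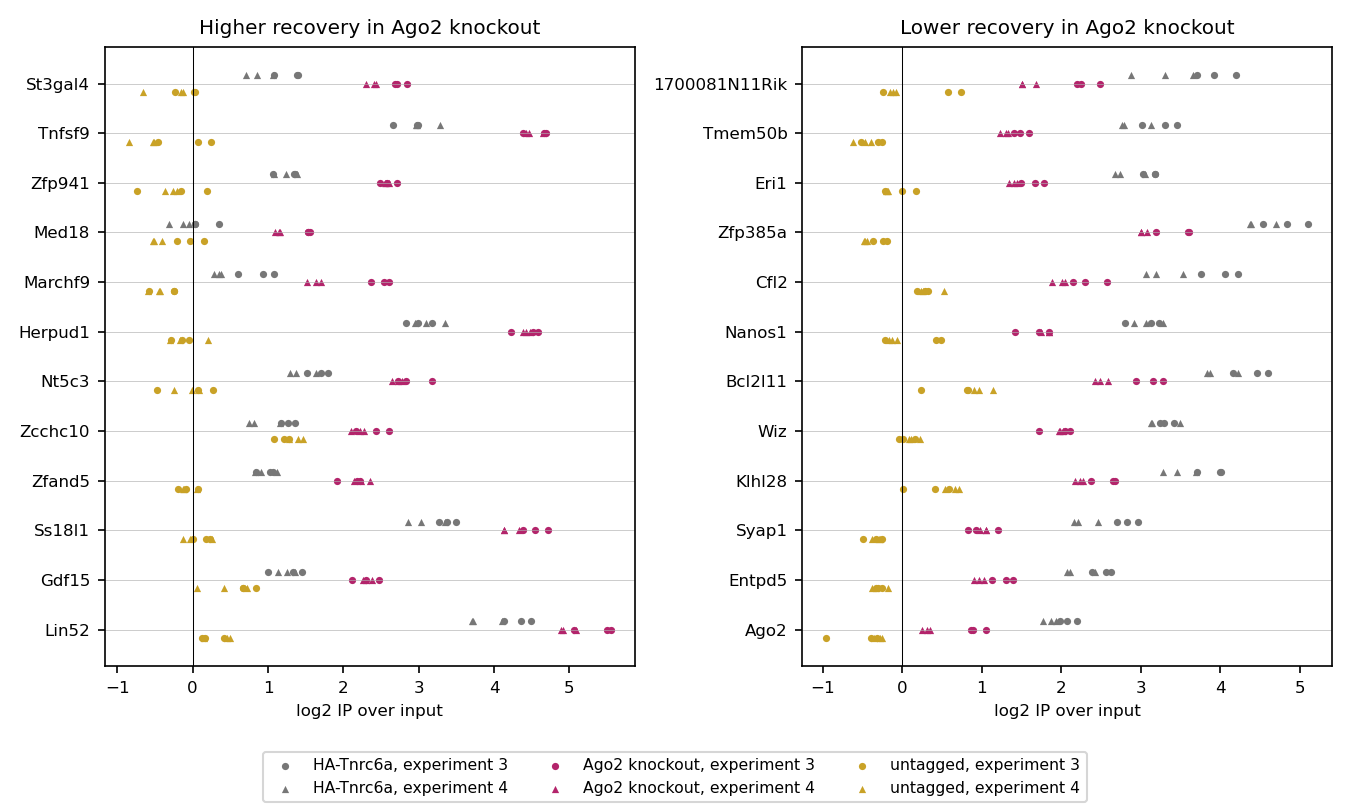
Log2 IP-over-input ratio (x axis) of the 12 genes with higher recovery (left) and the 12 with lower recovery (right), 1 point per IP library set against the mean input of its group, with HA-Tnrc6a in grey, Ago2 knockout in magenta and untagged cells in yellow, and circles for experiment 3 and triangles for experiment 4. The knockout points lie to the right of the HA-Tnrc6a points on the left panel and to the left on the right panel, and for most genes the untagged points lie near 0.

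Recovery in experiment 3 was also read against the inputs of experiment 4, and the joint fit that made the calls estimates its spread from both experiments. Among the 1216 genes with lower recovery in experiment 3, 70.1% had a positive input difference (knockout less HA-Tnrc6a) in experiment 4, against 47.9% of all genes tested and 40.9% of the 948 genes with higher recovery in experiment 3. The median input difference in experiment 4 was 0.09 for the lower genes, -0.03 for the higher genes and -0.01 for all genes on the log2 scale. Genes with lower recovery in experiment 3 thus more often had a positive input difference in experiment 4, by small amounts, and the reverse reading was not made. Input differences can recur in both experiments, as for Ago1 (0.48 and 0.49) and Cfl2 (0.73 and 0.43). A recurring positive difference also lowers the recovery of experiment 3, so the comparison is not independent of the inputs. Whether the knockout cells of both experiments came from the same clone is not given in the sources used here.

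The recovery effect was next read against a measure of binding taken from other libraries, the IP-over-input ratio of cells labelled Upf1 knockout over that of untagged cells. Upf1 RNA was not lower under that label, at 123 ± 0.874 and 139 ± 3.47 CPM in its inputs against 77.6 ± 4.95 and 98.5 ± 1.58 CPM in the HA-Tnrc6a inputs (SD, n = 3), so these libraries served only as tagged cells with an Ago2 gene labelled as intact. Of 19741 genes with a value, 3516 (17.8%) were bound, that is at least 2-fold higher at an adjusted p under 0.05, 1365 (6.91%) were depleted by as much, and 14860 were neither. Among the bound genes 504 (14.3%) had higher and 904 (25.7%) had lower recovery in Ago2 knockout cells, against 9.09% and 12.3% of all genes. Among the 1463 genes bound at least 4-fold the shares were 13.9% and 29.2%. Genes that were neither bound nor depleted were called about equally often in each direction, at 8.73% and 8.83%.

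All 12 of the named genes with lower recovery were in the bound set, with a median binding of 3.19 on the log2 scale, and 9 of the 12 with higher recovery were, with a median of 1.48. The 12 lower genes were chosen for large falls in both experiments. An RNA recovered well over background has more room to fall, so their place in the bound set is a description. The median binding was 0.48 over all genes called lower, 0.34 over those called higher and -0.06 over all genes tested. Bound genes were also more abundant, with a median average level of 4.74 log2 CPM against 3.53 for all genes tested, and more abundant genes have smaller errors. The parts of abundance and of this room to fall in the shares of the bound genes were not tested. Of the 1365 depleted genes, 14 (1.03%) were higher and 230 (16.8%) lower, with a median level of 0.84 log2 CPM.

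**Figure D3:**
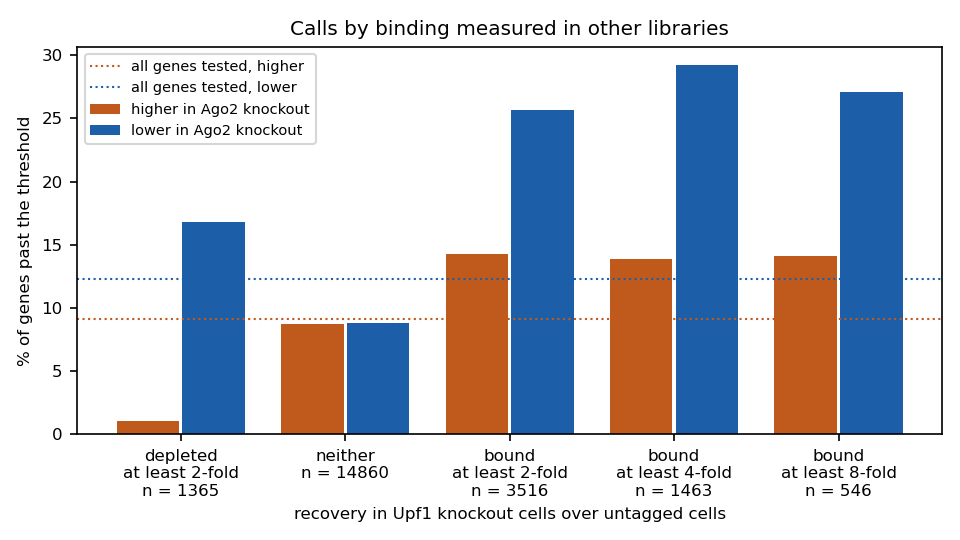
Percent of genes with higher (orange) and lower (blue) recovery in Ago2 knockout cells, by binding class measured as recovery in cells labelled Upf1 knockout over untagged cells, with n under each class; the 4-fold and 8-fold classes are subsets of the 2-fold class. Lower calls make up 25.7% to 29.2% of the 3 bound classes and higher calls 13.9% to 14.3%, each above its dotted line for all genes.

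No shift of the bound set as a whole was detected. For each lysate the mean log2 IP-over-input ratio over the bound genes, less that over all other genes, was 1.97 ± 0.130 and 1.84 ± 0.144 in HA-Tnrc6a cells and 1.91 ± 0.136 and 1.81 ± 0.0287 in knockout cells (SD, n = 3; experiments 3 and 4). The groups overlapped in both experiments. The averaged difference was -0.0436, smaller than the SD of 3 of the 4 groups and larger than that of the knockout lysates of experiment 4 (exact permutation test, two-sided, labels exchanged within each experiment, 400 labelings, p = 0.535, smallest p possible 0.005). The median recovery effect of the bound genes was -0.08 and that of all genes -0.04 on the log2 scale.

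The genes of the silencing machinery itself were then examined. Of the 7 Argonaute and GW182 genes, 3 fell and none rose in recovery, against 12.3% and 9.09% of all genes, and their median effect was -0.18. One of the 3 is the deleted gene itself. Ago2 is described above. Ago3 fell by 0.66 ± 0.10 (SE, log2; edgeR quasi-likelihood adjusted p = 8.5e-06), from 36.3 ± 6.77 to 21.0 ± 0.302 CPM in the IPs of experiment 3 and from 34.8 ± 0.663 to 22.1 ± 1.71 CPM in those of experiment 4 (SD, n = 3), and its inputs differed by -0.07 ± 0.08. Ago1 fell by 0.29 ± 0.08 in recovery (adjusted p = 0.00889), but its IP level did not fall, at 814 ± 91.9 and 674 ± 85.4 CPM in HA-Tnrc6a cells and 1054 ± 119 and 685 ± 33.5 CPM in the knockout. Its inputs rose from 77.1 ± 2.99 to 108 ± 4.62 CPM and from 76.8 ± 1.07 to 108 ± 1.08 CPM.

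The Ago1 effect was -0.11 in experiment 3 and -0.48 in experiment 4, and their difference did not pass the threshold (edgeR quasi-likelihood adjusted p = 0.598). Ago4 was at 0.76 on the log2 scale and did not pass (adjusted p = 0.0859). Of the GW182 genes, Tnrc6b was at -0.18 ± 0.08 and Tnrc6c at 0.07 ± 0.07 in recovery, neither past the threshold (SE, log2; edgeR quasi-likelihood adjusted p = 0.0914 and 0.566). In the inputs Ago1 rose by 0.49, Tnrc6a by 0.51, Tnrc6b by 0.34 and Tnrc6c by 0.21 on the log2 scale (adjusted p = 1.03e-07, 0.00359, 1.56e-05 and 0.00313). In the IPs these 4 messenger RNAs differed by 0.19, 0.61, 0.16 and 0.27, in the same order. None of the 4 was called higher in recovery, from which the input is subtracted.

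The 26 genes of deadenylation and decapping were called in both directions, 4 higher and 6 lower (38.5%, against 21.3% of all genes), with a median effect of 0.00. Dcp2, the enzyme that removes the cap, had the largest loss. It was at 758, 641 and 513 CPM in the HA-Tnrc6a IPs against 369, 303 and 338 CPM in knockout IPs of experiment 3, and at 954, 810 and 775 CPM against 470, 449 and 465 CPM in experiment 4. The knockout IPs were all lower, whereas the inputs differed by -0.04 ± 0.06, and the recovery effect was -0.86 ± 0.09 (SE, log2; edgeR quasi-likelihood adjusted p = 5.12e-09). Cnot6, a catalytic subunit of the CCR4-NOT deadenylase, fell by 0.47 ± 0.09, and Cnot9, a subunit of that complex that contacts GW182 proteins, by 0.33 ± 0.06 (adjusted p = 0.000264 and 0.000179). Their inputs differed by 0.05 and 0.08, neither past the threshold.

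Of the 13 genes of microRNA biogenesis, 1 rose and none fell (7.69% against 21.3% of all genes). That gene was Tut4, a terminal uridylyltransferase that modifies let-7 precursors, at 0.27 ± 0.07 (SE, log2; edgeR quasi-likelihood adjusted p = 0.0062). Dicer1, which cuts the hairpin, was at 0.21 ± 0.08 (adjusted p = 0.0726), and it passed with same-numbered input and IP as a block (adjusted p = 0.041) and in 1 fit of all 48 libraries (adjusted p = 0.0427). Of the 10 nonsense-mediated decay genes, 2 rose and 2 fell. Smg8, a regulator of the kinase of that pathway, rose by 0.50 ± 0.07 (adjusted p = 1.6e-06), with IP levels close to those of untagged cells, at 24.3 ± 2.28 CPM in HA-Tnrc6a, 33.2 ± 1.5 CPM in knockout and 27.9 ± 0.855 CPM in untagged IPs of experiment 3 (SD, n = 3).

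Reported microRNA targets were read as lists, and their effects differed in sign within each list. The lists are named for 2 seed families, whose mature sequences from RefSeq (GRCm38.p6) are shown because the seed, in capitals (bases 2 to 8 from the 5′ end), is what defines each family. The microRNAs themselves were not measured in these libraries.
mmu-miR-291a-3p: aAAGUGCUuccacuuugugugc
mmu-miR-294-3p: aAAGUGCUucccuuuugugugu
mmu-miR-295-3p: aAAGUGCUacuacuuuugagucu
mmu-miR-302d-3p: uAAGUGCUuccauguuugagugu
mmu-let-7a-5p: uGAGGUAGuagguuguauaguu
mmu-let-7g-5p: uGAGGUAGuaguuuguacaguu
The first 4 share the seed AAGUGCU and the last 2 the seed GAGGUAG. The miR-290 cluster members lie at chr7:3218968-3218989, chr7:3220691-3220712 and chr7:3220815-3220837 on the plus strand, in the order shown, and miR-302d at chr3:127545665-127545687 on the plus strand.

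Of the 15 genes on a list of reported targets of miR-290 and miR-302, all tested, 3 rose and 2 fell in recovery (33.3%, against 21.3% of all genes), with a median effect of 0.11. Ei24, a p53-induced gene, fell by 0.76 ± 0.09 (SE, log2; edgeR quasi-likelihood adjusted p = 3.81e-08). Its IPs were at 2291, 2035 and 1671 CPM in HA-Tnrc6a cells against 1586, 1291 and 1473 CPM in the knockout in experiment 3, and at 1687, 1405 and 1308 CPM against 1386, 1367 and 1487 CPM in experiment 4. The IP levels overlapped in experiment 4, and the ratios to input did not overlap in either experiment. The inputs rose from 137 ± 3.04 to 186 ± 3.68 CPM and from 136 ± 3.12 to 200 ± 3.71 CPM (SD, n = 3). Akt1, a growth kinase, fell by 0.50 ± 0.08 and Tgfbr2, a TGF-beta receptor, rose by 0.72 ± 0.19 (adjusted p = 7.55e-06 and 0.00526), the latter at input levels of 1.00 to 2.62 CPM in group means. The Tgfbr2 input difference was -1.12 in experiment 3 and 0.53 in experiment 4, beside recovery effects of 1.00 and 0.44. Its effect in experiment 4 did not pass (edgeR quasi-likelihood adjusted p = 0.21). Dkk1 and Lefty2 also rose, by 1.43 and 0.25, and were named after their values were seen. Dkk1 differed by -2.73 in the inputs and -1.30 in the IPs, at an average level of 0.69 log2 CPM. Lefty2 differed by 0.23 and 0.48. Cdkn1a, the cell-cycle inhibitor best known as a target of this family, was bound by 5.76 on the log2 scale but had an effect of 0.07 ± 0.11 (adjusted p = 0.718), named here after its values were seen.

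Of the 19 reported let-7 targets, 2 rose and 6 fell (42.1%, against 21.3% of all genes), with a median effect of -0.01. In the inputs 5 were higher and 2 lower, against 10.8% and 10.1% of all genes. Of the genes that fell, Ccnd1, Ccnd2 and Cdk6 had IP differences of 0.53, 0.95 and 0.01 (log2, knockout less HA-Tnrc6a). Their inputs were higher by 0.81, 1.32 and 0.23. The others, Igf2bp3, Trim71 and Igf2bp1, had IP differences of -0.42, -0.59 and -0.19. All but Igf2bp3 were named after their values were seen. Igf2bp3, an RNA-binding protein of early development, fell by 0.62 ± 0.06 (SE, log2; edgeR quasi-likelihood adjusted p = 2.3e-09), from 98.3 ± 6.69 to 73.4 ± 4.09 CPM in the IPs of experiment 3 and from 94.8 ± 2.21 to 71.0 ± 2.08 CPM in those of experiment 4 (SD, n = 3). The knockout level was close to the untagged IPs, at 64.7 ± 8.15 and 68.6 ± 5.08 CPM. Mycn rose by 0.53 ± 0.08 (adjusted p = 6.99e-06), from 751 ± 20.5 to 1439 ± 212 CPM and from 643 ± 91.4 to 1083 ± 38.8 CPM in the IPs, with untagged IPs at 134 ± 10.1 and 103 ± 2.51 CPM. Myc rose by 0.70 ± 0.09 (adjusted p = 6.18e-07), but its HA-Tnrc6a IPs, at 18.4 ± 1.21 and 47.8 ± 1.02 CPM, lay below the untagged IPs, at 31.7 ± 2.16 and 85.1 ± 7.72 CPM, and the knockout IPs were at 34.1 ± 6.82 and 72.0 ± 0.237 CPM.

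Trim71 is an RNA-binding repressor of embryonic stem cells. Of 8 reported Trim71 targets, 3 rose and 1 fell (50.0%, against 21.3% of all genes), with a median effect of 0.22. Inhbb, a subunit of activin, rose by 0.48 ± 0.09 and E2f7, a repressor of the E2F family, by 0.35 ± 0.08, and Mbnl1, a splicing regulator, fell by 0.53 ± 0.12 (SE, log2; edgeR quasi-likelihood adjusted p = 8.72e-05, 0.00105 and 0.00161). Inhbb was at 990 ± 155 CPM in HA-Tnrc6a and 1808 ± 168 CPM in knockout IPs of experiment 3, and at 2575 ± 329 and 3048 ± 145 CPM in experiment 4 (SD, n = 3). Mbnl1 was at 223, 191 and 160 CPM against 140, 110 and 117 CPM in the IPs of experiment 3, and at 243, 201 and 195 CPM against 140, 134 and 147 CPM in experiment 4. The Mbnl1 IPs did not overlap, but its ratios to input did in experiment 3.

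Among 18 pluripotency genes, 6 rose and 2 fell in recovery (44.4%, against 21.3% of all genes), with a median effect of 0.13. Tbx3, a T-box factor of naive cells, rose by 0.64 ± 0.07, from 587 ± 30.7 to 1020 ± 101 CPM and from 855 ± 81.9 to 1368 ± 36.5 CPM in the IPs (SD, n = 3; edgeR quasi-likelihood adjusted p = 1.58e-08). Sox2, a core pluripotency factor, rose by 0.42 ± 0.07, from 1072 ± 51.2 to 1555 ± 105 CPM and from 828 ± 65.6 to 1284 ± 59.3 CPM (adjusted p = 1.42e-05). Zfp42, a marker of the naive state, rose by 0.46 ± 0.06 (adjusted p = 1.03e-06), although it was not bound, with knockout IPs of 849 ± 40.8 and 976 ± 39.8 CPM, HA-Tnrc6a IPs of 617 ± 29.1 and 640 ± 30.6 CPM and untagged IPs of 701 ± 10.6 and 630 ± 10.4 CPM. The 2 that fell, named after their values were seen, were Sall4, a zinc finger factor, by 0.29 ± 0.06 and Dppa5a, an RNA-binding protein gene, by 0.38 ± 0.11 (SE, log2; edgeR quasi-likelihood adjusted p = 0.000506 and 0.0102). Neither was in the bound set, with binding of 0.50 and -0.96 on the log2 scale. Sall4 differed by 0.19 in the inputs and -0.10 in the IPs, and Dppa5a by 0.15 and -0.23. In the inputs 7 of the 18 were higher and 2 lower, against 10.8% and 10.1% of all genes.

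Of the 18 germ layer and trophoblast markers that could be tested, out of 21, 3 rose and none fell in recovery, against 9.09% and 12.3% of all genes, while in the inputs 4 were higher and 10 lower, against 10.8% and 10.1%. The 3 were Gsc at 1.33, Otx2 at 0.22 and Pou3f1 at 0.48 on the log2 scale (edgeR quasi-likelihood adjusted p = 0.0239, 0.0266 and 0.049), and they lost their calls in 3, 4 and 15 of 24 fits that left out 1 library, with an adjusted p of up to 0.0712, 0.0662 and 0.136. Pou3f1 also did not pass with same-numbered input and IP as a block (adjusted p = 0.054). In the IPs Gsc, Otx2 and Pou3f1 differed by 2.54, 0.02 and -0.06 on the log2 scale. Their input differences were 1.21, -0.20 and -0.54. The largest input differences were -3.23 for Gata6, -2.98 for Sox17, -2.78 for Foxa2 and -2.73 for Dab2 on the log2 scale. Gata6, Sox17 and Dab2 are markers of primitive endoderm. The recovery effects of these genes were 0.16, 0.06, 0.75 and -0.02 and did not pass the threshold. The 4 markers that were higher in the inputs were Pax6 by 1.25, Gsc by 1.21, Nes by 0.47 and Sox1 by 0.42. Foxa2, Pax6 and Gsc had low average levels, at -0.79, 0.03 and 0.05 log2 CPM. Of 6 fibroblast markers that could be tested, out of 10, Pdgfrb rose by 0.50 ± 0.13 (SE; edgeR quasi-likelihood adjusted p = 0.00533) and none fell, and 5 were lower in the inputs. The part of these cell types in the recovery effect was not tested.

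Nuclear long noncoding RNAs, which are apart from the cytoplasmic silencing machinery, gave 4 lower and no higher calls among the 8 of 10 that could be tested (50.0%), with a median effect of -0.38. Lower calls made up 12.3% of all genes and 16.8% of the depleted genes. Meg3 fell by 0.50 ± 0.08, Snhg11 by 0.39 ± 0.08 and Malat1 by 0.37 ± 0.08 (SE, log2; edgeR quasi-likelihood adjusted p = 1.75e-05, 0.000246 and 0.000421). These RNAs were not bound. Meg3 was at 176 ± 12.5 and 98.8 ± 15.4 CPM in the HA-Tnrc6a IPs, 135 ± 14.6 and 58.4 ± 3.73 CPM in knockout IPs and 255 ± 22.3 and 187 ± 25.9 CPM in untagged IPs (SD, n = 3), so both tagged genotypes recovered less of it than the beads did from untagged cells. Snhg11 and Malat1 were at 0.04 and -0.01 in experiment 3 and at -0.81 and -0.73 in experiment 4, a difference that passed the threshold (adjusted p = 0.00353 and 0.0286).

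**Figure D4:**
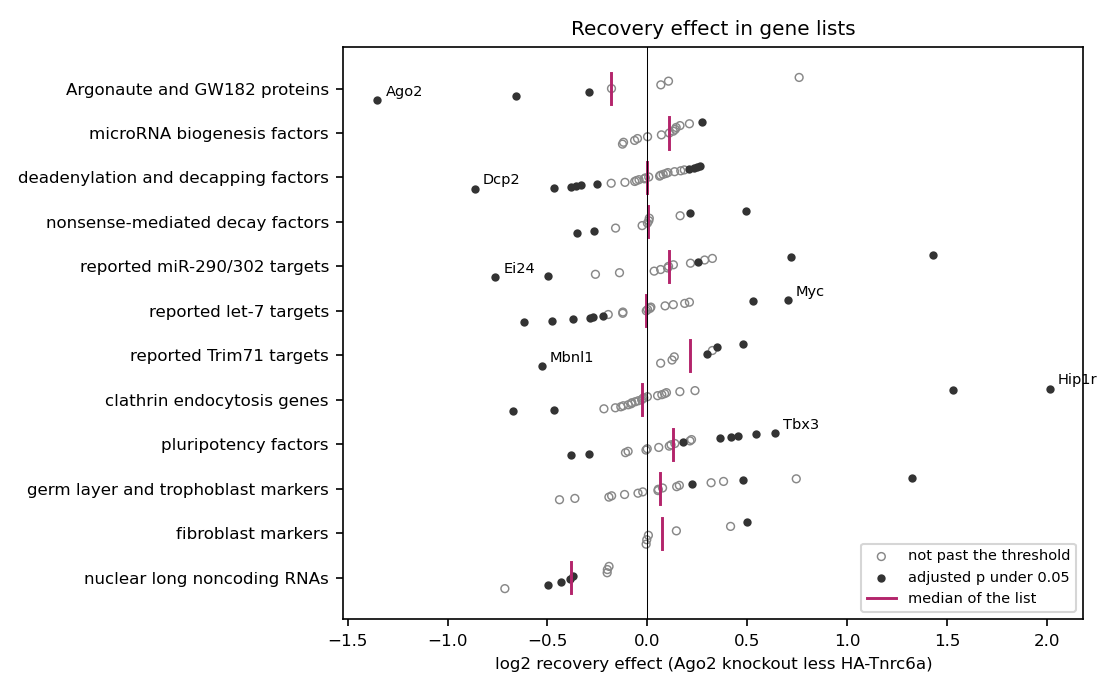
Log2 recovery effect (x axis) of each tested gene of 12 lists (y axis), filled where the adjusted p was under 0.05, with the median of each list as a magenta line. The medians lie between -0.38 and 0.22, and most lists hold filled points on both sides of 0.

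The effect itself differed between the experiments for 39 genes (0.195%) at an adjusted p under 0.05, 23 with a larger value in experiment 4 and 16 with a smaller one, and for 1528 genes at an unadjusted p under 0.05. The largest differences belonged to Hip1r and Hip1, paralogs that join clathrin coats to actin. Hip1r (ENSMUSG00000000915, chromosome 5, 123973602 to 124003215) was at 57.8, 48.7 and 45.2 CPM in the HA-Tnrc6a IPs and at 532, 430 and 622 CPM in knockout IPs of experiment 3. In experiment 4 it was at 24.2, 26.3 and 27.4 CPM against 32.6, 33.3 and 37.8 CPM. All knockout IPs were higher in both experiments, but the effect was 3.36 ± 0.14 in experiment 3 and 0.66 ± 0.14 in experiment 4 (SE; difference -2.70 ± 0.20, edgeR quasi-likelihood adjusted p = 7.03e-11). Hip1r inputs lay near each other, at 32.1 ± 1.13 and 32.5 ± 2.68 CPM in experiment 3 (SD, n = 3).

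Hip1 (ENSMUSG00000039959, chromosome 5, 135406496 to 135545323) was at 56.0, 52.6 and 47.2 CPM in the HA-Tnrc6a IPs against 386, 345 and 496 CPM in knockout IPs of experiment 3, and at 69.5, 65.1 and 59.0 CPM against 65.6, 61.6 and 72.9 CPM in experiment 4. The groups were far apart in experiment 3 and overlapped in experiment 4 (effects 2.88 ± 0.14 and 0.18 ± 0.13, SE; difference -2.70 ± 0.19, edgeR quasi-likelihood adjusted p = 1.78e-11). Untagged IPs of Hip1r and Hip1 in experiment 3 were at 32.7 ± 3.09 and 23.2 ± 0.429 CPM (SD, n = 3), with ratios to input of 0.14 and -0.17 on the log2 scale. Itsn2 and Ston2, named after their values were seen, also encode endocytic adaptors and also had smaller effects in experiment 4, at 0.73 and -0.41 for Itsn2 and 0.59 and -0.13 for Ston2 in experiments 3 and 4. Over the list of clathrin endocytosis genes, which was drawn up after Hip1 was known to stand out, 2 of 23 tested genes rose and 2 fell on average over experiments (17.4%, below the 21.3% of all genes), the latter being Epn1 at -0.67 ± 0.08 and Epn2 at -0.47 ± 0.07. ND5, a mitochondrial subunit of complex I that overlaps ND6, fell by 1.15 ± 0.14 in experiment 4 and was at 0.10 ± 0.14 in experiment 3 (difference -1.25 ± 0.20, adjusted p = 0.00126), and Gm27000 was at -1.19 and -0.06 (difference -1.14 ± 0.25, adjusted p = 0.029, and 0.0523 with the block of input and IP).

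The genes with a larger value in experiment 4 were led by Incenp, a subunit of the chromosomal passenger complex, Phf20 and Kat6b, which take part in histone acetylation, and Atrx, a chromatin remodeller. Incenp (ENSMUSG00000024660, chromosome 19, 9872295 to 9899489) was at 5555, 4844 and 3798 CPM in the HA-Tnrc6a IPs of experiment 3 and at 1123, 1244 and 1598 CPM in knockout IPs. In untagged IPs it was at 5860, 7530 and 9289 CPM. In experiment 4 it was at 223, 249 and 275 CPM in the HA-Tnrc6a IPs, 304, 297 and 279 CPM in knockout IPs and 568, 357 and 711 CPM in untagged IPs. The untagged IPs were thus the highest in both experiments, and the lower value of the knockout in experiment 3 had no counterpart in experiment 4 (effects -1.83 ± 0.15 and 0.15 ± 0.15, SE; edgeR quasi-likelihood adjusted p of the difference 1.37e-06).

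Phf20, Kat6b and Atrx had effects of -1.69, -1.76 and -1.63 in experiment 3 and of -0.01, -0.13 and -0.03 in experiment 4, and their untagged ratios in experiment 3 (log2 IP over input) were 4.44, 3.18 and 2.26. Of the 23 genes with a larger value in experiment 4, 15 (65.2%) were recovered at least 2-fold over input from untagged cells in experiment 3, against 688 of all genes tested (3.44%). Of the 16 genes with a smaller value, 3 (18.8%) were so recovered in experiment 3, also above the share of all genes. In experiment 4, 6 of these 16 and 4 of the 23 were so recovered, against 685 of the 19995 genes tested. The untagged libraries do not enter the recovery effect, and the part of bead recovery in these differences was not tested. For these 15 genes the effect was -1.83 to -0.76 in experiment 3 and -0.23 to 0.39 in experiment 4, and their untagged ratios fell from between 1.14 and 5.55 to between -0.28 and 1.83. Without the 688 genes, 4165 of 19307 genes passed in the averaged effect, 1779 higher and 2386 lower.

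**Figure D5:**
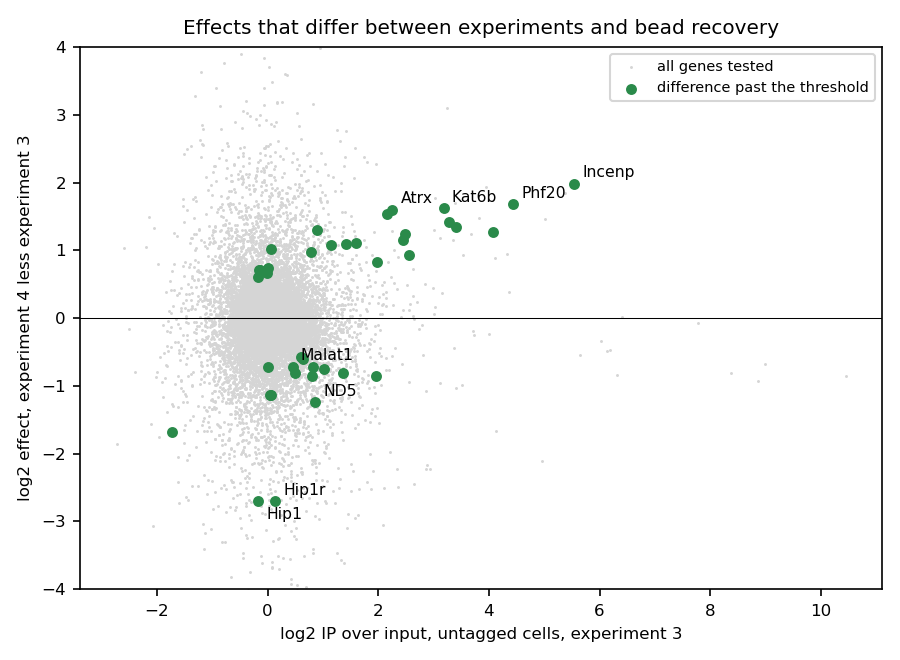
Effect in experiment 4 less effect in experiment 3 (y axis, log2) against the IP-over-input ratio of untagged cells in experiment 3 (x axis, log2), 1 point per gene, with the 39 genes past the threshold in green and 32 genes outside the y axis. Green points above 0 extend to the right up to Incenp, at 5.55, while Hip1 and Hip1r lie near 0 on the x axis.

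Recovery in Ago2 knockout cells was also set against cells labelled Upf1 knockout, a contrast that shares the Ago2 knockout libraries with the one above. Of 19962 genes, 4878 (24.4%) passed the threshold, 2174 of them (10.9%) on the higher side and 2704 (13.5%) on the lower side. The higher side made up 44.6% of the calls with TMM scaling and 63.4% with library totals, so no balance of directions is read from it. Ago2 was at -1.24 in this contrast, and Tnrc6a had a log2 value of 0.25 that did not pass (adjusted p of 0.3, edgeR quasi-likelihood).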

How the data were processed

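Inputs and IPs were sequenced from stranded total RNA libraries. The authors deposited raw counts per gene in 1 table of 48 libraries, with gene lengths, per the file headers; the submitters' processing notes name bcl2fastq 2.20, STAR 2.7.3a and GRCm38/mm10, and the counting step and its strand setting are not given in the sources used here. Further columns headed RPKM hold counts divided by 1 factor per library and were not used. Columns numbered 1 to 3 were matched to experiment 3 by title; columns 4 to 6 were taken as experiment 4, a mapping that is inferred, and those libraries are given in column order.

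Counts were fitted in edgeR 4.0.16 (limma 3.58.1, R 4.3.3): TMM scaling, filterByExpr with a minimum count of 10, robust quasi-likelihood fit with 1 coefficient per group over the 24 libraries, two-sided F-test, Benjamini-Hochberg adjustment over all genes tested. Adjusted p-values quoted are from that test unless another is named. SE is the effect divided by the square root of F. CPM values use TMM over all 48 libraries, and library ratios a prior count of 2. Intervals from counts cover counting error only. The fit was tested on simulated data. Named genes are Ago2 and Tnrc6a, the 12 per direction with the largest smaller effect of the 2 experiments (adjusted p under 0.05, same sign in both, average log2 CPM of at least 3), the 4 per direction with the largest difference between experiments (averaged effect and difference both past the threshold, same minimum level), and up to 3 of each list with the smallest adjusted p. Members and lists were chosen with earlier results of these data known. Alternatives were other scalings, no filter, DESeq2 1.42.0, replicate blocks, single experiments, IPs without inputs, all 48 libraries and each library left out. The table named 16427 genes, the reference 3725 more, and 19 stayed without a symbol. One list member that the rule names is not reported here.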

Additional observations from a re-analysis of the deposited data

Results flagged for a closer look

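For 10 named genes the effect of Ago2 knockout on recovery differed between experiments 3 and 4 by the test of the difference itself (edgeR quasi-likelihood, adjusted p under 0.05 over 19995 genes). In log2 units of experiment 4 less experiment 3 the difference was -2.70 for Hip1r, -2.70 for Hip1, -1.25 for ND5, -1.14 for Gm27000, -0.85 for Snhg11 and -0.72 for Malat1. It was 1.98 for Incenp, 1.68 for Phf20, 1.63 for Kat6b and 1.60 for Atrx. Incenp, Phf20, Kat6b and Atrx had IP-over-input ratios in untagged cells of 5.55, 4.44, 3.18 and 2.26 on the log2 scale in experiment 3, and 1.83, 1.05, 0.20 and 1.28 in experiment 4. Hip1r and Hip1 had untagged ratios of 0.14 and -0.17 in experiment 3. The part of bead recovery in these differences was not tested.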

How the results depend on the processing

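The count of 4267 genes with changed recovery stayed within 1.5 times under RLE size factors, library totals, no count filter, DESeq2, experiment 4 alone and all 48 libraries in 1 fit, and ranged from 3849 (without Ago2 knockout input 4) to 4723 (without Ago2 knockout IP 2) when each library was left out. It was 8724 with IPs compared without inputs, 1623 in experiment 3 alone and 224 with a 2-fold minimum, and 3777 without HA-Tnrc6a number 3 input and IP of experiment 3, an alternative chosen after seeing the data. Both single-experiment fits hold the same number of libraries, and experiment 4 alone gave 3463 genes. Libraries of experiment 3 were shallower, with inputs of 15829009 to 19595405 counts against 30397981 to 37101637, and the part of depth was not tested. The count of 39 genes that differed between experiments was 104 with DESeq2 and 24 (without HA-Tnrc6a input 6) to 71 (without Ago2 knockout IP 3) when each library was left out. Against cells labelled Upf1 knockout, 4878 genes became 11719 without inputs, 2667 in experiment 3 alone and 282 with a 2-fold minimum, and 4486 to 5101 with each library left out. The share of higher calls there moved from 44.6% to 63.4% with library totals, 58.5% in experiment 3 alone, 53.2% without a filter and 53.4% in 1 fit of all libraries. The cause was not tested for these changes.

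Same-numbered libraries deviated together little (mean correlation 0.0593, range -0.0627 to 0.382; same-numbered input and IP 0.0519), and not every pair was above 0.1, so the numbers were not taken as pairs. That 16 of 24 libraries correlated best with their own number is a hint of pairing from the data, not the design, and the bound-set score sets each IP against its same-numbered input. A replicate block (the number as a term) gave 4471 genes, and a block of same-numbered input and IP 4300; the difference between experiments gave 37 genes with either block, and the comparison with cells labelled Upf1 knockout 5101 and 4956. Signs turned without inputs for Ago1 (0.19), Ddx17 (-0.0014), Pou3f1 (-0.059), Col1a1 (-0.20) and Pdgfra (-1.63), in experiment 3 alone for ND5 (0.079), Pdgfra (-0.13) and Snhg11 (0.020), and in experiment 4 alone for Tnrc6a (-0.18) and Incenp (0.16). Tnrc6a passed the threshold when IPs were compared without inputs (0.61), and ND5 did not pass in 1 fit of all 48 libraries (-0.52). The difference of Gm27000 lost its call in 11 of 24 fits that left out a library (adjusted p up to 0.0997), with the block of input and IP (0.0523) and with library totals (0.0538). With that block Pou3f1 did not pass (0.054) and Dicer1 did (0.041). The difference in the bound set per lysate was -0.0740 with a 4-fold minimum (exact permutation p = 0.3), -0.0447 with library totals (p = 0.515) and -0.0436 with group mean inputs (p = 0.545). Groups of genes by seed match were planned and not run, since 3′ untranslated sequence was not used here. Genes of low counts, such as most germ layer markers, have wide errors at this depth.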
